A study of Mus musculus with 6 samples.

Results

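Small RNA reads of piRNA size that lay on 5 mRNAs, Zfp317, Nop16, Zyg11a, Xkrx and Tapbp, were followed through 6 small RNA libraries of mouse testis. The 5 genes were chosen from 55450 genes because their reads were scarcest in testes without Miwi2 relative to WT littermates. They hold ranks 1 to 5 from the lowest among the 1527 transcripts with at least 500 counted sense reads over that pair of libraries, so the ratio that chose them is given as a description, with no test. The libraries were the Miwi2 KO and the Miwi2 WT at 10 days post partum (dpp), the Dnmt3L KO and the Dnmt3L WT at 10 dpp, and the Dnmt3L KO and the Dnmt3L WT at 16.5 days post coitum (dpc), all from whole testis of C57BL/6 background. Each library is 1 pool of animals of one genotype, of 3 mice at 10 dpp and of 7 or 8 mice at 16.5 dpc, and WT animals were littermates of the mutants. The labels call the mutants knockouts and do not describe the alleles. Since each group is 1 library, nothing below is checked by replicates, and the intervals given are 95% intervals for counting error only.

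piRNAs are small RNAs that guide Piwi proteins in the germ line. They are cut from long single-stranded transcripts, usually begin with U, and in the ping-pong cycle a piRNA on one strand leads to the cutting of the other strand 10 nt from its 5′ end, which leaves A at position 10 of the new piRNA. Miwi2, encoded by Piwil4, is the nuclear Piwi protein of male germ cells around birth and is known for guiding DNA methylation of transposons. Dnmt3L is the cofactor of the DNA methyltransferases that lay down this methylation. Spermatogonia also make sense piRNAs from ordinary mRNAs, mostly from 3′ UTRs, with Mili as the Piwi partner. The 5 genes have different roles. Zfp317 encodes a zinc finger protein of the KRAB family, Nop16 a nucleolar protein of ribosome assembly as known from yeast, Zyg11a a relative of substrate receptors of Cul2 ubiquitin ligases, Xkrx a membrane protein of the XK family and Tapbp tapasin, which joins MHC class I molecules to the peptide transporter.

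The sequences below are among the 3 most-read ones of each mRNA in the Miwi2 WT library, ranked among the reads that the counting rule given further below keeps. They show what was measured. On Zfp317, Nop16, Xkrx and Tapbp, sequences that this rule leaves out were read more often. They are reads from the deposited files, written with T for U, with a T at position 1 and an A at position 10 in capitals. All but the 24-nt read of Zfp317 were found in 1 gene, and all are in sense orientation.
Zfp317, 3′ UTR, 28 nt: TcactttgtAgaccaggctggccccgcc
Zfp317, 3′ UTR, 24 nt: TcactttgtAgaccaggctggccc
Nop16, coding sequence, 28 nt: TgaaccggaAtgctcgtcggaaggcagc
Zyg11a, coding sequence, 25 nt: cagaacagcgagcattttccagggc
Zyg11a, coding sequence, 28 nt: TgacagaacAgcgagcattttccagggc
Xkrx, coding sequence, 27 nt: Tgatgactacaagattagactggggcc
Xkrx, 3′ UTR, 26 nt: TaccaactgAgacatccttggccccc
Tapbp, coding sequence, 27 nt: Tgtctgtcgggtgtaccactctagcct
Tapbp, 3′ UTR, 26 nt: Taagaaggttgagaaccactggccag
Tapbp, 3′ UTR, 29 nt: TaagattctAgagacctcagggacagccc

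On GRCm38 the 28-nt read of Zfp317 lies at chr9:19648462-19648489 on the plus strand, in exon 9. The read of Nop16 lies at chr13:54589876-54589903 on the minus strand, in exon 1. The 28-nt read of Zyg11a lies at chr4:108205309-108205336 on the minus strand and holds the whole 25-nt read, so that these share a 3′ end and differ in the 5′ end. The reads of Xkrx lie at chrX:134151191-134151217 and chrX:134149248-134149273 on the minus strand. Those of Tapbp lie at chr17:33926279-33926305, chr17:33928989-33929014 and chr17:33929046-33929074 on the plus strand. The 28-nt read of Zfp317 was read 2 times in the Miwi2 KO and 891 times in the Miwi2 WT. The 24-nt read of the same 5′ end, which 6 genes hold, was read 213 times in the Miwi2 KO and 305 times in the Miwi2 WT. The 25-nt read of Zyg11a had 3 reads in the Miwi2 KO and 83 in the Miwi2 WT, and the 27-nt read of Tapbp had 2 and 59. The 26-nt read of Tapbp was read 0 times in the Miwi2 KO and 40 times in the Miwi2 WT, and the 27-nt read of Xkrx 10 and 77 times. The 28-nt read of Nop16 had 6 reads in the Miwi2 KO and 49 in the Miwi2 WT. Each of these sequences was thus seen in the Miwi2 WT far above the floor of 3 reads, and the 24-nt read shared by 6 genes was the one that stayed close between KO and WT.

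The libraries held 37218684 reads for the Miwi2 KO and 45010155 for the Miwi2 WT, and 28701563 to 47232494 over all 6. Levels are reads per 1000000 reads of the library (RPM), for which 3 reads amount to 0.0635 to 0.105 RPM. Reads of 24 to 32 nt made up 28.2% of the Miwi2 KO, 28.03% of the Miwi2 WT, 13.9% of the Dnmt3L KO at 10 dpp and 19.7% of its WT. Small RNA reads do not check the knockouts: on the Miwi2 gene Piwil4 there were 2 in the Miwi2 KO and 2 in the Miwi2 WT, and on Dnmt3l 0 in the Dnmt3L KO and 1 in the Dnmt3L WT at 10 dpp, and 287 and 104 at 16.5 dpc, where the KO had more. The part of the transcript that was deleted is not given in the labels. The Miwi2 WT and the Dnmt3L WT of 10 dpp were also unlike each other. Over the 1348 transcripts that could be compared between them, the median log2 ratio of Miwi2 WT over Dnmt3L WT was 0.89, and the 95th percentile of the absolute log2 ratio was 1.996, or 3.99-fold. This value serves as the size limit below: a difference is called where it is larger.

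Most reads that matched these mRNAs did not belong to them alone. A read was counted where it did not lie in a miRNA or other small RNA gene and where fewer than 10 genes held it, and it was divided evenly over those genes. After this division the counted reads came to 0.380% in the Miwi2 KO and 1.86% in the Miwi2 WT of all sense reads of 24 to 32 nt that matched the 5 transcripts. Zyg11a was the exception, with no read left out: all 313 of its distinct sense sequences were found in 1 gene. Before the rule, Zfp317 had 216 RPM in the Miwi2 KO and 425 RPM in the Miwi2 WT, Xkrx 1928 and 2619 RPM, Tapbp 3153 and 4338 RPM, and Nop16 14.0 and 35.4 RPM. Counted in full, the log2 ratios of KO over WT were -0.98 for Zfp317, -1.34 for Nop16, -0.44 for Xkrx and -0.46 for Tapbp, inside the limit of 2.21 that this way of counting gave, and the Zyg11a ratio of -2.45 was past it. The values below are therefore those of reads held by few genes, and not of every read that the sequence could have given.

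**Figure D1:**
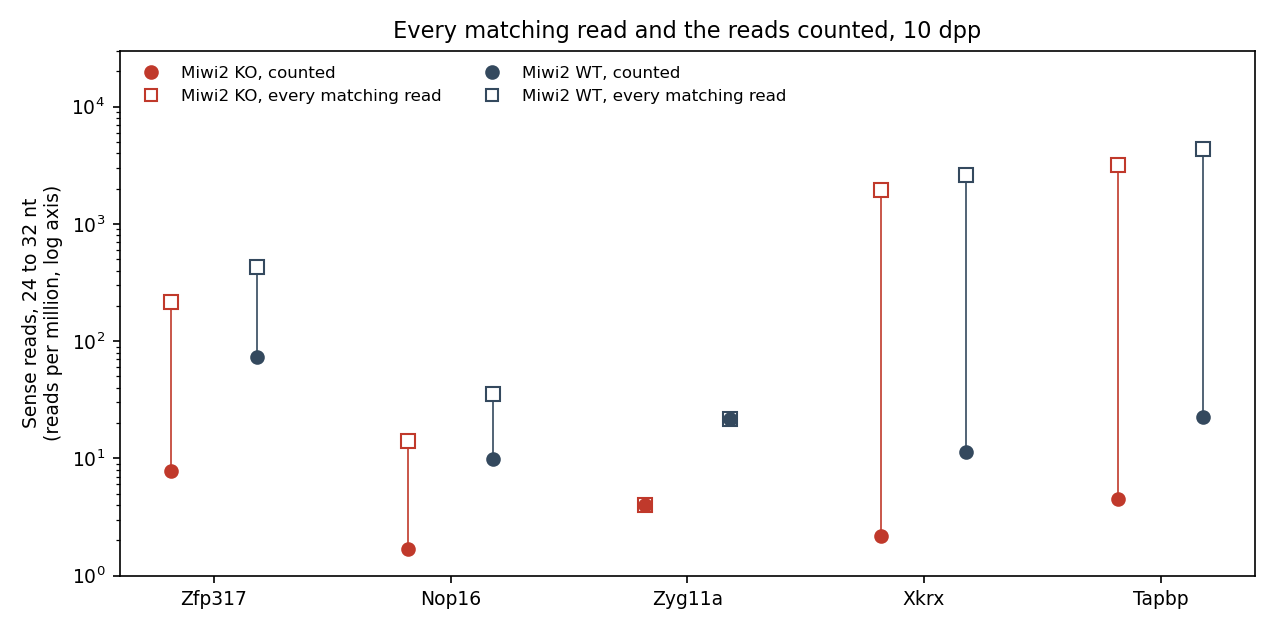
Sense reads of 24 to 32 nt per 1000000 reads (log axis) on each of the 5 mRNAs in the Miwi2 KO (red) and the Miwi2 WT (dark blue) at 10 dpp, as every matching read (open squares) and as the reads counted (filled circles). The 2 coincide for Zyg11a, while for Xkrx every matching read came to 1928 RPM in KO and 2619 RPM in WT, against 2.18 and 11.4 RPM counted.

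Reads were left out on either ground. Those that also lie in an annotated small RNA gene were 99.8% in the Miwi2 KO and 99.5% in the Miwi2 WT of all sense reads matching Xkrx, 91.7% and 91.3% for Tapbp, 86.2% and 71.6% for Nop16 and 54.5% and 38.4% for Zfp317. A further 39.3% in the Miwi2 KO and 41.7% in the Miwi2 WT for Zfp317, and 8.15% and 8.10% for Tapbp, were held by at least 10 genes. The read left out with the most reads on Xkrx and that on Tapbp are shown beside an antisense read of Zfp317 and Xkrx. From general knowledge these are letters of B1, a SINE family, on its antisense strand for the sense reads and on its sense strand for the antisense read. No repeat annotation was used here.
Xkrx, left out, 24 nt: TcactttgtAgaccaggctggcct
Tapbp, left out, 24 nt: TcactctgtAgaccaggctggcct
Zfp317 and Xkrx, left out, antisense, 26 nt: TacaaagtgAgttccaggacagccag

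These were held by 536, 640 and 451 genes. The Xkrx read had 52234 reads in the Miwi2 KO and 77846 in the Miwi2 WT, and the Tapbp read 60165 and 84490. The 24-nt read of the Zfp317 site and the Xkrx read were identical over their first 23 bases, so the most-read site of Zfp317 begins in the same repeat, and its 27-nt and 28-nt reads run on into sequence that 1 gene holds. The antisense read had 5891 reads in the Miwi2 KO and 8394 in the Miwi2 WT, and its 5′ end overlaps that of the Zfp317 site by 10 nt. All antisense reads with this overlap came to 174 RPM in the Miwi2 KO and 207 RPM in the Miwi2 WT. The sense reads counted at exactly the same 5′ end of Zfp317 came to 1.06 RPM in the Miwi2 KO and 39.6 RPM in the Miwi2 WT. The antisense reads facing the site were thus nearly as frequent in KO as in WT, while the counted sense reads were not, and every one of these antisense reads lay in at least 29 genes, so that their source cannot be told.

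Zfp317 gave 7.80 RPM in the Miwi2 KO and 72.6 RPM in the Miwi2 WT, that is 0.107-fold (interval 0.0949 to 0.121, log2 -3.22), from 290 and 3267 counted reads. It lies at chr9:19622102-19649731 on the plus strand, and its longest transcript has 3988 nt, of which 1824 are coding and 1683 are 3′ UTR. Among the 136 positions where its reads began in the Miwi2 WT, a single site around nucleotide 2719, in the 3′ UTR, held 20.8% of the reads in the Miwi2 KO and 73.9% in the Miwi2 WT. A share of 4.26% of the 1527 transcripts, 65 in number, had as large a share at one site in that WT library, where the median was 15.5%. At the site the level was 1.63 RPM in the Miwi2 KO and 53.6 RPM in the Miwi2 WT, or 0.0303-fold. Elsewhere on the transcript it was 6.17 RPM in the Miwi2 KO and 19.0 RPM in the Miwi2 WT, or 0.325-fold (log2 -1.62), which is inside the limit. The Dnmt3L WT library of the same age had 6.79 RPM at the site and 12.7 RPM elsewhere. The WT libraries thus differed 7.89-fold at the site (log2 2.98, past the limit) and 1.49-fold elsewhere, and the call for Zfp317 rests on that site and on that WT library.

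Nop16 gave 1.69 RPM in the Miwi2 KO and 9.80 RPM in the Miwi2 WT, 0.173-fold (0.131 to 0.225, log2 -2.53), from 63 and 441 reads. The gene lies at chr13:54584185-54590090 on the minus strand, with a transcript of 1756 nt that is 62.4% 3′ UTR. Its most-read site, at nucleotide 188 near the start of the coding sequence, held 20.6% of the reads in the Miwi2 KO and 34.0% in the Miwi2 WT, and the log2 ratio without it was -2.27, still past the limit. The coding sequence gave 34 reads in the Miwi2 KO and 281 in the Miwi2 WT (0.146-fold), and the 3′ UTR 23 and 153 reads (0.182-fold). The 5′ UTR gave 6 and 7 reads, too few for a ratio to mean much. Reads were thus scarcer in KO in both the coding sequence and the 3′ UTR of this mRNA.

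Zyg11a gave 3.98 RPM in the Miwi2 KO and 21.7 RPM in the Miwi2 WT, 0.183-fold (0.153 to 0.218, log2 -2.45), from 148 and 978 reads. It lies at chr4:108181738-108218048 on the minus strand, with a transcript of 2421 nt. Its reads lay almost wholly in the coding sequence, 94.6% in the Miwi2 KO (interval 89.6 to 97.6) and 99.3% in the Miwi2 WT (98.5 to 99.7), where the coding sequence is 87.9% of the transcript. Among the 1175 coding transcripts compared, 48 in the Miwi2 KO and 52 in the Miwi2 WT had 95% or more of their reads there, and the median transcript had 82.2% of its reads in the 3′ UTR in KO and 82.0% in WT. The reads were spread: 117 positions began a read in the Miwi2 WT, the most-read site, at nucleotide 1916, held 10.2%, and without it the log2 ratio was -2.46. The ratio of Zyg11a was thus nearly the same without its most-read site, and it was the same with every matching read. Its relative Zyg11b, on the other hand, had 115 RPM in the Miwi2 KO and 199.5 RPM in the Miwi2 WT, log2 -0.79, close to the median of all transcripts.

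Xkrx gave 2.18 RPM in the Miwi2 KO and 11.4 RPM in the Miwi2 WT, 0.190-fold (0.149 to 0.241, log2 -2.39), from 81 and 515 reads. It lies at chrX:134149043-134162076 on the minus strand, with a transcript of 2876 nt. The most-read site, at nucleotide 2646 in the 3′ UTR, held 55.6% of the reads in the Miwi2 KO and 32.8% in the Miwi2 WT. The level there was 1.21 RPM in the Miwi2 KO and 3.75 RPM in the Miwi2 WT, and without it the log2 ratio was -2.99. The reads of this site were thus less reduced in KO than the rest of the transcript, the opposite of Zfp317. In the coding sequence there were 10 reads in the Miwi2 KO and 128 in the Miwi2 WT (0.0945-fold), and in the 3′ UTR 71 and 387 (0.222-fold).

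Tapbp gave 4.54 RPM in the Miwi2 KO and 22.7 RPM in the Miwi2 WT, 0.1998-fold (0.169 to 0.236, log2 -2.32), from 169 and 1022 reads. It lies at chr17:33915899-33929292 on the plus strand, with a transcript of 2898 nt. The ratio was 0.187-fold in the coding sequence and 0.206-fold in the 3′ UTR, from 56 and 363 reads and from 109 and 640 reads. Its most-read site, at nucleotide 2595 in the 3′ UTR, held 24.9% of the reads in the Miwi2 KO and 14.0% in the Miwi2 WT, and without it the log2 ratio was -2.52. Tapbp was the only member with more than 2 counted antisense reads in either library of the Miwi2 pair, at 58.3 reads in the Miwi2 KO and 105 in the Miwi2 WT, or 1.57 and 2.33 RPM. Counting both strands together gave a log2 ratio of -2.04, just inside the limit of 2.10 for that way of counting.

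**Figure D2:**
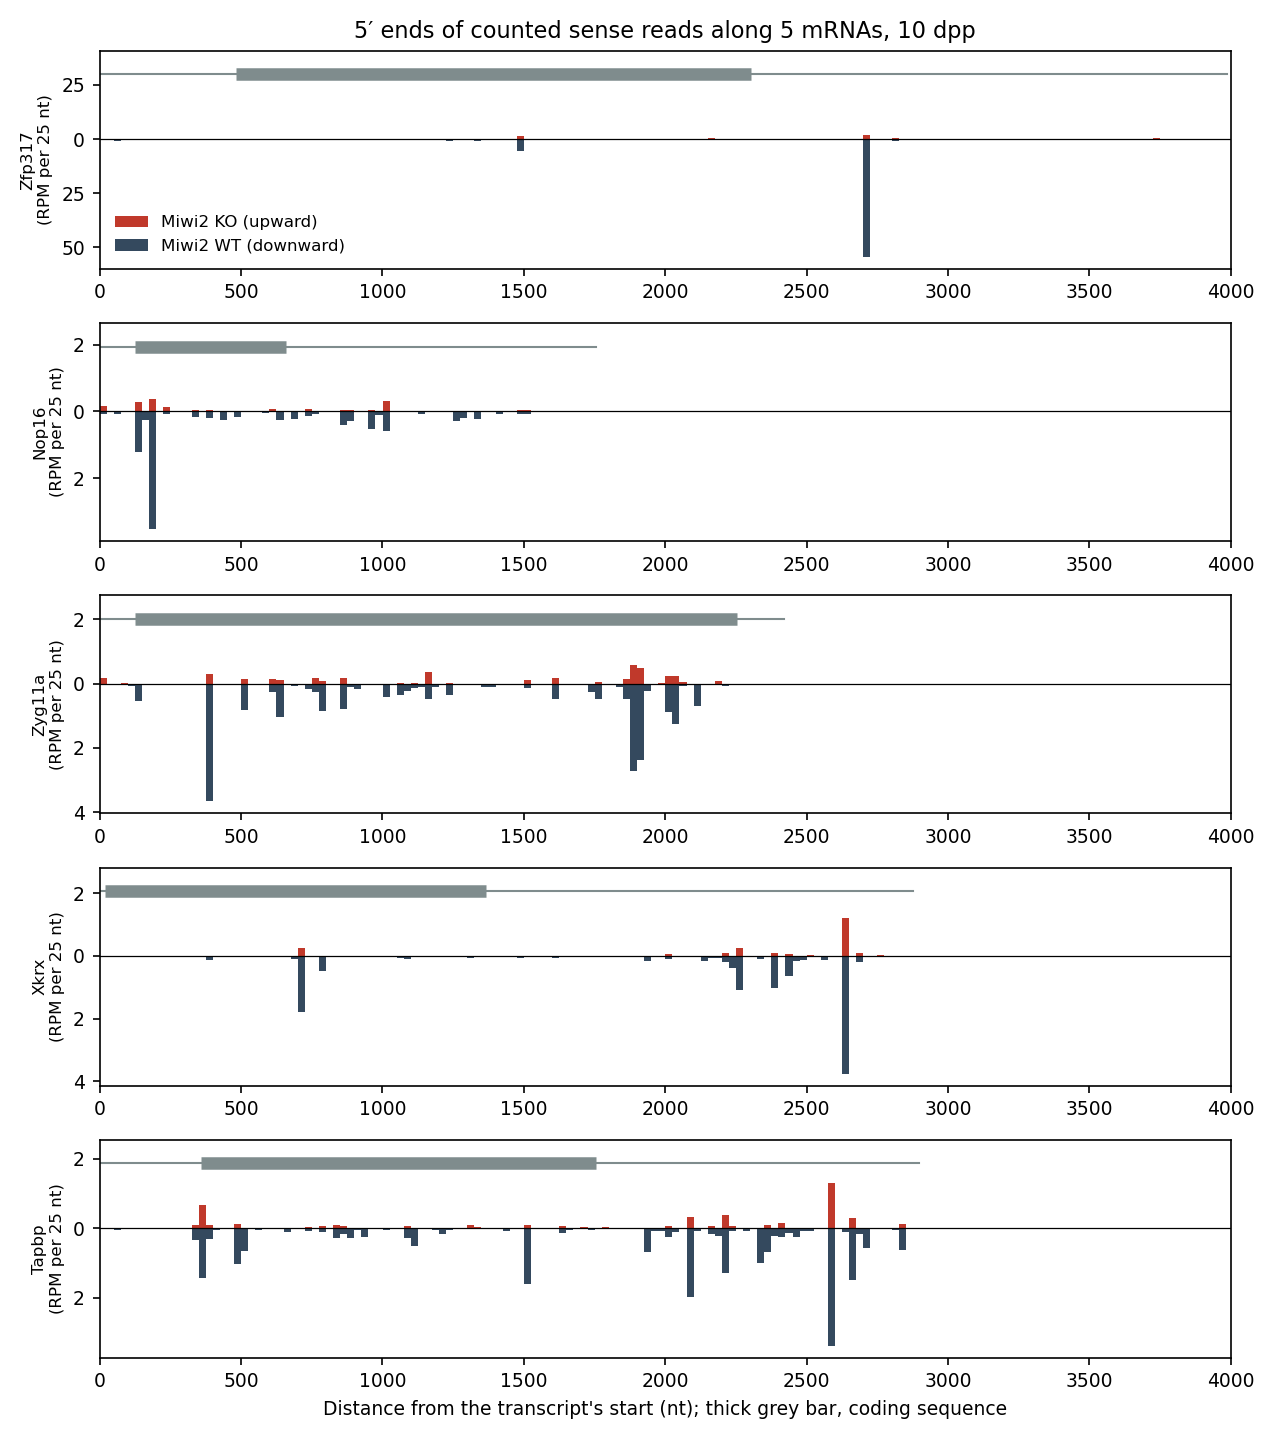
Counted sense reads by the position of their 5′ end along each transcript, in bins of 25 nt, as reads per 1000000, with the Miwi2 KO upward in red and the Miwi2 WT downward in dark blue; the thick grey bar is the coding sequence. Zfp317 has a single tall bar in the WT near nucleotide 2719, while the reads of Zyg11a are spread over the coding sequence.

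Over all 1527 transcripts compared, 9 were called lower in the Miwi2 KO than in the Miwi2 WT, which is 0.589%, and 101 were called higher, which is 6.61%, or 7.20% in either direction. The rule used this ratio, so nothing is read from these shares. The split depends on the scaling, with 78 lower and 121 higher when libraries are scaled by their reads of 24 to 32 nt, and 1 lower and 76 higher when they are scaled by miRNA reads. The median log2 ratio was -0.68, so the members lay 1.64 to 2.54 below it. The members are 5 of the 9 by choice. The next transcripts above them were Cep68 at -2.18, Pde4c at -2.10, Plin3 at -2.06 and Tmem198b at -2.04, all called, and B3gntl1 at -1.99, not called. No transcript lay below them. Cep68 resembled Zfp317 in holding 77.1% of its Miwi2 WT reads at one site, with a log2 ratio of -1.40 without it. When each transcript lost its own most-read site, 11 of 1525 (0.721%) were past the limit on the lower side, and 4 of the 5 members were among them. The members were chosen on reads of these same libraries, so nothing is read from that count either. Positions with at least 10 reads in the Miwi2 WT numbered 83 on the 5 mRNAs, and a lower level elsewhere is largely fixed by this choice. Of these, 81 were lower in the Miwi2 KO, 64 of them more than 4-fold, and 26 had no read there. The same positions were higher in the Dnmt3L WT in 8 cases, and 13 had no read in it.

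**Figure D3:**
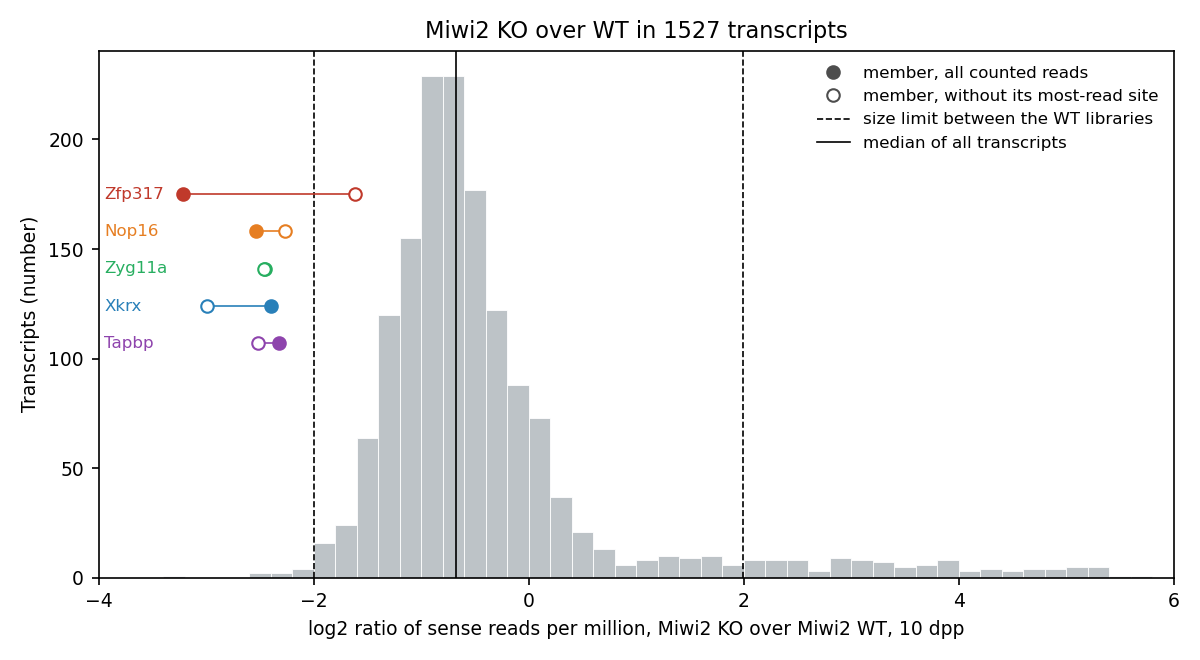
Number of transcripts by log2 ratio of sense reads per 1000000, Miwi2 KO over Miwi2 WT at 10 dpp, over 1527 transcripts (grey), with the median at -0.68 (solid line) and the size limit of 1.996 in either direction (dashed lines). Coloured points mark the 5 members with all counted reads (filled) and without their most-read site (open), at heights that carry no value; Zfp317 moves inside the limit, to -1.62, and the other 4 members stay past it.

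The second WT library of 10 dpp took no part in the choice. The comparisons below share the Miwi2 KO or the Miwi2 WT with the one above, so they are given side by side and not as separate support. The members had 1.28 to 1.90 higher log2 levels in the Miwi2 WT than in the Dnmt3L WT, apart from Zyg11a at 0.54, and 0 of the 5 were past the limit (of 1348 transcripts 4.97% were called higher, 0.0742% lower and 5.04% in either direction, since the limit was set on this pair; with TMM 22 were called lower and 46 higher). Zfp317 had 7.80 RPM in the Miwi2 KO, 72.6 RPM in the Miwi2 WT and 19.5 RPM in the Dnmt3L WT. Nop16 had 1.69 RPM in the Miwi2 KO, 9.80 RPM in the Miwi2 WT and 4.03 RPM in the Dnmt3L WT. Zyg11a had 3.98 RPM in the Miwi2 KO, 21.7 RPM in the Miwi2 WT and 14.9 RPM in the Dnmt3L WT. All 5 members were lower in the Miwi2 KO than in either WT library, Xkrx and Tapbp included, at 4.198 and 8.43 RPM in the Dnmt3L WT. Set against the Dnmt3L WT in place of the littermates, the Miwi2 KO had log2 ratios of -1.32 for Zfp317, -1.25 for Nop16, -1.91 for Zyg11a, -0.95 for Xkrx and -0.89 for Tapbp. None of these was past the limit, where 0.286% of 1050 transcripts were called lower, 15.4% higher and 15.7% in either direction, and the median of all was 0.20. Of the 5, Zfp317 and Zyg11a reached 500 reads over this pair. Zyg11a was the nearest to the limit, with 5 of the 1050 transcripts lower, and Tapbp the farthest, with 81 lower. The distance of the Miwi2 KO from WT thus depended on which WT it was set against, by 1.46-fold for Zyg11a and by 3.72-fold for Zfp317. The direction was the same against both, but choosing members by low reads in the Miwi2 KO favours that direction. At the most-read sites, which were chosen in the Miwi2 WT, the Miwi2 WT was also 4.88-fold above the Dnmt3L WT for Nop16 and 5.72-fold for Xkrx, against 1.57-fold for Zyg11a and 2.81-fold for Tapbp.

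The reads of the 5 mRNAs began with U in 81.5% in the Miwi2 KO (interval 78.5 to 84.2) and in 79.2% in the Miwi2 WT (78.2 to 80.2), against 73.8% and 75.6% of all reads on transcripts. U makes up 22.4% to 28.9% of the letters of the 5 transcripts. By member the share of first U was lowest for Nop16 at 71.4% in the Miwi2 KO and highest for Xkrx at 96.3%, and in the Miwi2 WT it ran from 77.2% for Zfp317 to 91.7% for Xkrx. The mean length was 27.5 ± 1.93 nt in the Miwi2 KO and 27.5 ± 1.44 nt in the Miwi2 WT (SD over reads). The reads left in the KO thus began mostly with U, as in WT. Only reads of piRNA size were counted, so the mean length cannot show whether the reads left had the length of piRNAs. The spread of lengths was wider in the Miwi2 KO than in the Miwi2 WT for each member but Xkrx. Its SD was 1.02 nt in the Miwi2 KO and 1.38 nt in the Miwi2 WT. A at position 10 was found in 35.5% in the Miwi2 KO and 48.9% in the Miwi2 WT, and the member with the most reads, Zfp317, had 44.5% in KO and 62.5% in WT. Without its site, Zfp317 had A at position 10 in 33.4% in the Miwi2 KO and 24.9% in the Miwi2 WT. The other 4 members ran from 23.4% to 36.5% in the Miwi2 KO and from 30.1% to 41.7% in the Miwi2 WT, where all reads on transcripts had 36.2% and 32.1%.

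**Figure D4:**
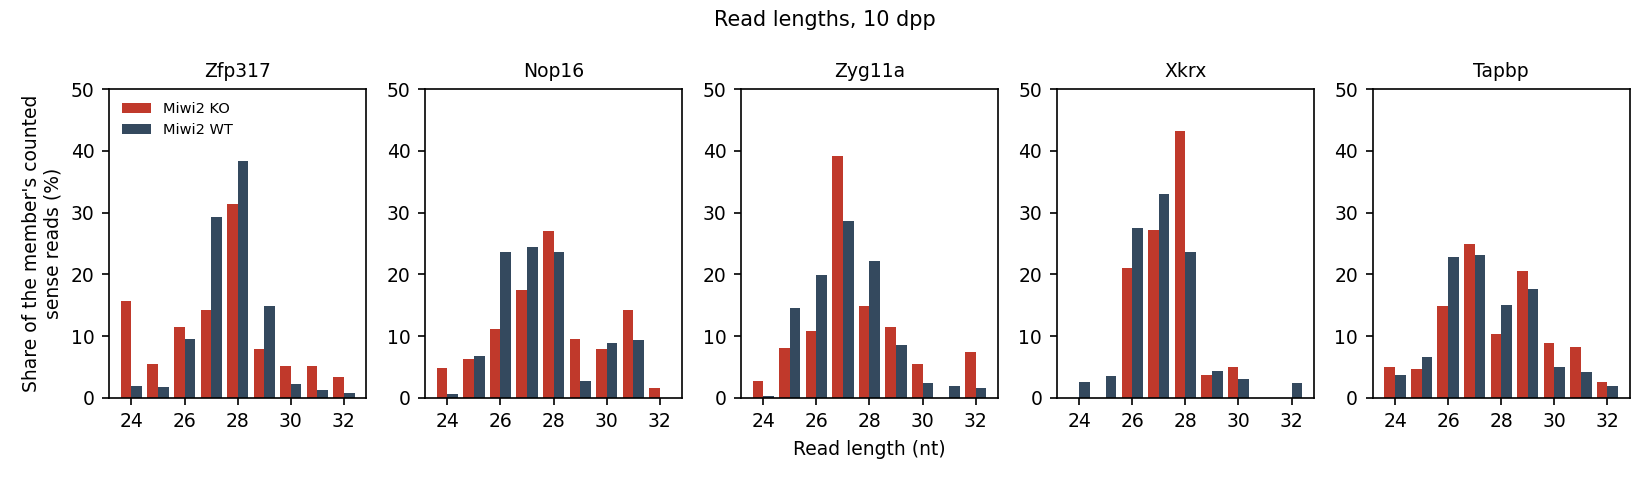
Share of each member's counted sense reads by length, 24 to 32 nt, in the Miwi2 KO (red, left bars) and the Miwi2 WT (dark blue, right bars) at 10 dpp. The KO bars of Zfp317 include 15.7% of 24-nt reads against 1.89% in WT, and the other members peak at 27 or 28 nt in both libraries.

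Overlaps of ping-pong type were hardly seen among counted reads. The counting rule had, however, left out every antisense read that matched Zfp317 and Xkrx, so that none could be seen on them. Zfp317 and Xkrx had 0 counted antisense reads in each of the 6 libraries, and for Tapbp 0% of the overlaps of 1 to 20 nt were of 10 nt in the Miwi2 KO and 9.33% in the Miwi2 WT. With every matching read, 65.5% of the Xkrx overlaps of 1 to 20 nt were of 10 nt in the Miwi2 KO and 64.3% in the Miwi2 WT. For Zfp317 the share of 10 nt was 9.97% in the Miwi2 KO and 24.3% in the Miwi2 WT, and the most frequent overlap was 11 nt in both. For Tapbp the share was 9.10% in the Miwi2 KO and 9.75% in the Miwi2 WT. These overlaps belong to sequence shared with many other genes, and the reads may come from any of them.

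In the Dnmt3L KO at 10 dpp reads were lower over nearly the whole set of transcripts: of the 558 compared, 86.0% were called lower, 0.717% higher and 86.7% in either direction, with a median log2 ratio of -3.08. The 5 members had ratios of the same order. Zfp317 had 2.16 RPM in the Dnmt3L KO and 19.5 RPM in the Dnmt3L WT (log2 -3.17), and Zyg11a 1.18 and 14.9 RPM (log2 -3.65). These are the 2 members that reached 500 reads over this pair, and both were called. Nop16 had 5.5 counted reads in the Dnmt3L KO and 153.5 in the Dnmt3L WT, Xkrx 7 and 160, and Tapbp 13 and 321, with log2 ratios of -4.40, -4.11 and -4.22. After TMM scaling, which centres each pair of libraries on its transcripts, the ratios of Zfp317 and Zyg11a were -0.13 and -0.61, inside the limit of 1.26 for that scaling, and the median of all transcripts was -0.04. Nop16, Xkrx and Tapbp, under 500 reads, were at -1.36, -1.07 and -1.18, of which the value of Nop16 was past that limit. With TMM scaling the Miwi2 ratios of the members ran from -2.55 for Zfp317 to -1.66 for Tapbp, all 5 past that limit. The median of all transcripts was then -0.01. The members were chosen on the Miwi2 ratio and not on the Dnmt3L ratio. Their place in the Miwi2 pair is thus largely fixed, and nothing is read from the contrast of the pairs. The difference between the knockouts was not tested, since each has 1 library. Marker miRNAs of germ cells also moved between the Dnmt3L KO and WT of 10 dpp, as given below, and their part in these ratios was not tested.

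Before birth the members had few reads and no ratio past the limit. At 16.5 dpc, Zfp317 had 140 counted reads in the Dnmt3L KO and 179 in the Dnmt3L WT, Nop16 42 and 42, Zyg11a 23 and 28, Xkrx 81 and 52, and Tapbp 70.2 and 67.1. In RPM these are ratios of 0.700-fold to 1.40-fold, and 0 of the 5 reached 500 reads over the pair, where 0.103% of 969 transcripts were called, 1 transcript that was higher. The Dnmt3L WT at 10 dpp had more of them than at 16.5 dpc in all 5 cases. Zyg11a was at 14.9 RPM at 10 dpp and 0.661 RPM at 16.5 dpc, 22.5-fold (15.4 to 34.2), and Zfp317 at 19.5 and 4.23 RPM, 4.61-fold (3.91 to 5.46). These 2 reached 500 reads and were called higher, as were 38.9% of the 1030 transcripts compared, while 36.2% were called lower and 75.1% in either direction. The call for Zyg11a held under every alternative scaling and way of counting, while that for Zfp317 ended with miRNA scaling, at a log2 ratio of 1.09 inside a limit of 2.67, and with every matching read, at 0.40 inside a limit of 2.21. Scaled by miRNA reads, 409 transcripts were called lower and 140 higher, and scaled by reads of 24 to 32 nt, 321 lower and 523 higher. Nop16, Xkrx and Tapbp were 4.07-fold, 3.42-fold and 5.33-fold higher at 10 dpp, where the median of all transcripts was a log2 ratio of 0.52. Within each member the order of levels was the same at the top: Miwi2 WT, then Dnmt3L WT at 10 dpp, then Miwi2 KO. The choice of members favours this order. The Miwi2 WT was below the Dnmt3L WT in only 4.90% of the 1348 transcripts compared between them. Below the Miwi2 KO, the libraries of 16.5 dpc and the Dnmt3L KO at 10 dpp changed places between members. The intervals of both libraries of 16.5 dpc overlapped for Nop16, Zyg11a, Xkrx and Tapbp. For Xkrx the interval of the Miwi2 KO, 1.73 to 2.70 RPM, also overlapped that of the Dnmt3L KO at 16.5 dpc, 1.36 to 2.13 RPM, and for Nop16 that of the Miwi2 KO, 1.30 to 2.17 RPM, overlapped that of the Dnmt3L WT at 16.5 dpc, 0.714 to 1.34 RPM.

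**Figure D5:**
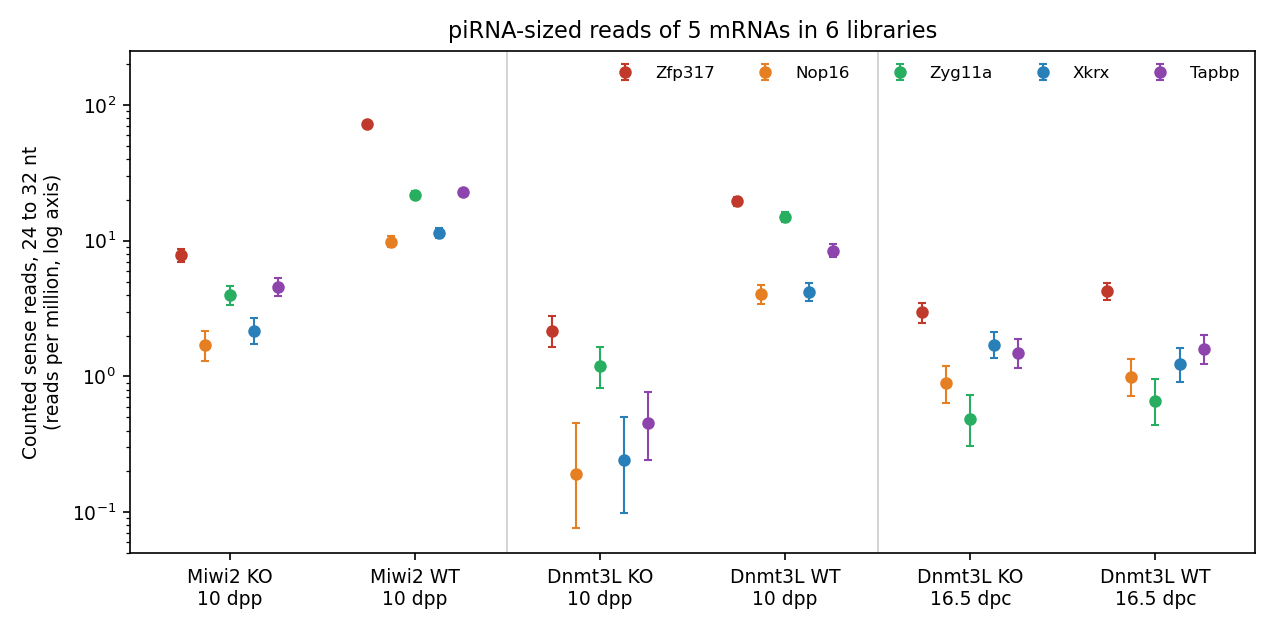
Counted sense reads of 24 to 32 nt per 1000000 reads (log axis) for the 5 mRNAs in the 6 libraries, with 95% exact Poisson intervals for counting error. In each member the Miwi2 WT is the highest, the Dnmt3L WT of 10 dpp the next and the Miwi2 KO the third, an order that the choice of members favours.

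The positions where reads began were only partly shared. Of the 44 positions of Zyg11a in the Miwi2 KO, 29 also began reads in the Miwi2 WT, and these are 65.9% of the KO positions and 24.8% of the WT positions. They held 77.7% of the reads in the Miwi2 KO and 64.3% in the Miwi2 WT. For Zfp317 the shared positions held 76.7% of the reads in the Miwi2 KO and 90.0% in the Miwi2 WT, and for Tapbp 74.2% and 52.8%. Between the WT libraries of 10 dpp, Zyg11a shared 49 positions, with 82.1% of its Miwi2 WT reads and 82.4% of its Dnmt3L WT reads. Reads that remained in the KO thus began mostly where WT reads began.

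The transcripts whose levels over the 6 libraries were most like those of each member were found by the Euclidean distance of centred log2(RPM + 0.1) profiles among 2225 protein-coding transcripts. For Nop16 they were Heg1 (distance 0.61) and Xkrx (0.63), for Xkrx Ksr1 (0.58) and Dync1li1 (0.59), for Tapbp Ss18l1 (0.46) and Lmtk2 (0.57). For Zyg11a they were Zfp462 (0.65) and Tmcc3 (0.78), and for Zfp317 Rassf3 (1.03) and Tapbp (1.04), the largest distances of the 5. Zfp462 had 1.72 RPM in the Miwi2 KO and 8.40 RPM in the Miwi2 WT, with fewer than 500 reads over the pair. Lmtk2 had 10.9 RPM in the Miwi2 KO and 38.9 RPM in the Miwi2 WT.

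Few relatives of the members had enough reads to be compared, and where 0.589% of all transcripts were called lower, a count of 0 among them shows nothing particular to these genes. Of 14 other zinc finger genes and their partners, 3 could be compared between the Miwi2 KO and WT, Zfp26, Zfp180 and Zfp568. Their log2 ratios were -1.44, -1.02 and -1.18, with a median of -1.18 and 0 called, while the median of all transcripts was -0.68. Of 14 genes of ribosome assembly, 3 were compared, the nucleolar proteins Ncl at -0.81 and Nop56 at 0.14 and the assembly factor Wdr12 at -0.08, and 0 were called. One gene was compared in each of the other lists, 0 of them called: Zyg11b of 6 genes of the Zyg11 and Cul2 ligases, Xkr8 at -0.18 of 7 of the XK family, the chaperone Calr at 0.54 of 10 of MHC class I peptide loading, and Exd1 at -0.83 of 22 of the piRNA pathway. Tap1 and Tap2, the transporter that tapasin joins, had 0 counted reads in both libraries of the Miwi2 pair, which allows up to 0.0806 RPM in the KO and 0.0667 RPM in the WT.

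Marker miRNAs of testis cell types moved between the same libraries, and their part in the ratios above was not tested. Values are scaled to 1000000 miRNA reads. The 5 genes of the Mir34b and Mir449 clusters, listed as meiotic, summed to 311 in the Miwi2 KO and 692 in the Miwi2 WT. They summed to 105 in the Dnmt3L WT of 10 dpp. Before birth they were higher, at 753 in the Dnmt3L KO and 798 in the Dnmt3L WT of 16.5 dpc. They are therefore not read as a measure of meiotic cells. The 10 X-linked testis miRNA genes summed to 72572 in the Miwi2 KO, 35930 in the Miwi2 WT and 49452 in the Dnmt3L WT. Mir202 of Sertoli cells was at 398, 235 and 198, and the 6 genes of peritubular and mesenchymal cells summed to 45548, 44472 and 46861. Mir126a of endothelium was at 1074, 688 and 520, and the 4 genes of blood cells summed to 159, 143 and 107. The 8 genes of epithelia summed to 864, 967 and 446, and the 9 genes found of the pluripotency clusters to 34.1, 44.9 and 29.9. In the Dnmt3L KO of 10 dpp the Mir34b and Mir449 genes summed to 472, the X-linked testis genes to 13576 and the pluripotency clusters to 23.9. Against the Dnmt3L WT the Mir34b and Mir449 genes were thus higher there, and the X-linked testis genes and the pluripotency clusters lower. None of these lists was at 0, and lists of germ cells moved in both directions. In whole testis, fewer cells of a type and less RNA per cell cannot be told apart. Reads outside small RNA genes held by at least 10 genes made up 8.28% of the reads of 24 to 32 nt in the Miwi2 KO and 3.84% in the Miwi2 WT. This class moved the other way from the members, while the sense reads left out on the members were lower in KO. These came to 202 RPM in the Miwi2 KO and 341 RPM in the Miwi2 WT for Zfp317, and 12.3 and 25.5 RPM for Nop16. They were 1926 and 2607 RPM for Xkrx, and 3148 and 4312 RPM for Tapbp.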

How the data were processed

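Total RNA of whole testis was made into TruSeq small RNA libraries of an 18 to 35 nt fraction, per the labels' protocols. Each deposited file lists distinct read sequences with their raw counts, without a header, which is the unit of all values. The submitters' processing notes name mm9 as the build. How reads were trimmed or filtered is not stated in those notes or the labels. Reads of 18 to 32 nt were matched without mismatch, on both strands, to the longest GENCODE vM21 transcript (GRCm38) of 55450 genes. Printed coordinates are on GRCm38.

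Reads of 24 to 32 nt outside small RNA genes and held by fewer than 10 genes that are not pseudogenes were divided evenly over the genes that hold them and scaled to 1000000 reads of the library. Gene symbols come from GENCODE. A site is the 5′ ends within 2 nt of the most-read position in the Miwi2 WT. The matching and the ratios were tested on simulated reads and counts, and the rules on small RNA genes and pseudogenes were not part of that test. No test was run with 1 library per group. Differences were called past the 95th percentile of absolute log2 ratios, Miwi2 WT over Dnmt3L WT at 10 dpp, over transcripts with at least 500 sense reads over the compared pair. Intervals are exact and at 95% (Clopper-Pearson for shares, Poisson for levels, conditional binomial for ratios). Reads carry no molecular identifiers, so these intervals hold the counting error alone. Named were the 5 members, the 5 transcripts just above them, the 2 nearest by profile, and genes of lists of relatives. The members and lists were chosen with earlier results of these data known. Leaving out the most-read site and setting the Miwi2 KO against the Dnmt3L WT were chosen after seeing the data. Python 3.11.15, numpy 2.4.6, numba 0.67.0, scipy 1.17.1 and, for TMM factors only, edgeR 4.0.16 were used. Alternatives tried were scaling by miRNA reads, by reads of 24 to 32 nt or by TMM, 25 to 30 nt, reads of 1 gene, both strands, distinct sequences, full counting and other count minimums.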

Additional observations from a re-analysis of the deposited data

Results flagged for a closer look

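Xkrx went in opposite directions in the Dnmt3L KO at the 2 ages. Its log2 ratio of KO over WT was 0.48 at 16.5 dpc, from 81 and 52 counted reads, and -4.11 at 10 dpp, from 7 and 160 counted reads. The difference was not tested, since each group is 1 library. At 16.5 dpc the counting interval of the ratio, 0.974-fold to 2.02-fold, includes a ratio of no change. With every matching read counted in full the log2 ratio at 16.5 dpc was -0.053, where the median of all transcripts was -0.046. The higher level in KO at 16.5 dpc was thus not seen with full counting, while the ratio at 10 dpp was then -3.40.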

How the results depend on the processing

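The median log2 ratio of the 5 members, Miwi2 KO over WT, was -2.45. It was -2.41 with scaling by miRNA reads, inside a limit of 2.67, -0.98 with every matching read in full, and -1.25 against the Dnmt3L WT. Transcripts past the limit in that comparison, 110, became 199 with scaling by reads of 24 to 32 nt (78 lower and 121 higher), 179 with TMM (16 and 163), 38 with reads of 1 gene (20 and 18), 224 in full and 475 with no minimum. In the Dnmt3L KO at 10 dpp the median of -4.11 became -1.07 with TMM, and 484 transcripts became 105 with TMM (38 lower and 67 higher), 2474 in full, 319 with distinct sequences, 1484 with a minimum of 100 and 3535 with none. At 16.5 dpc the median of -0.16 became 0.036 with miRNA scaling, and 1 transcript became 7, 13, 7, 5, 4 and 303 with scaling by reads of 24 to 32 nt, TMM, full counting, distinct sequences, a minimum of 100 and none. For Dnmt3L WT, 10 dpp over 16.5 dpc, the median of 2.20 became 1.09 with miRNA scaling and 2.003 in full, and 774 transcripts became 1664 in full, 1829 and 3483 with the lower minimums. For Miwi2 WT over Dnmt3L WT the median of 1.43 became -0.48 with distinct sequences, and 68 transcripts became 250, 237 and 944. Member features moved with distinct sequences to 77.4% first U, 31.3% A at position 10 and 27.8 nt in the Miwi2 KO, and to 70.5%, 29.8%, 27.6 nt and 41.5% in the 3′ UTR in the Miwi2 WT. With reads of 1 gene they were 31.4% A at position 10, 27.8 nt and 39.9% in the 3′ UTR in the Miwi2 KO, and 27.5 nt and 59.4% in the Miwi2 WT, where 25 to 30 nt gave 27.4 nt. Among single members in the Miwi2 comparison, miRNA scaling left Zfp317 as the only call, distinct sequences put Zfp317 at -0.81 inside a limit of 1.02, and scaling by TMM or by reads of 24 to 32 nt kept all 5 calls. With 25 to 30 nt or reads of 1 gene all 5 were past the limit, but 4 reached 500 reads. The cause of these shifts was not tested. No paired analysis was possible because each group is 1 library, and no replicate could be left out.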
